A study of Homo sapiens with 6 samples.

Results

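The 38 genes described here act in glycolysis or its regulation, transport glucose or lactate, or are other targets of hypoxia-inducible factor (HIF). They were taken from a given list and matched by symbol to the 61541 genes counted in each library. The list holds 3 transporters, 17 glycolytic enzymes, 4 regulators of glycolytic flux and 14 other HIF targets. RNA came from RCC4, a human kidney cancer line of the clear cell type. Of the 6 cultures, 3 were untreated and 3 received interferon gamma (IFNγ, 1000 U/mL) and tumour necrosis factor (TNF, 25 ng/mL) together for 24 h, with 3 flasks for each biological replicate. Poly(A) RNA was read by direct RNA nanopore sequencing, in which each read is 1 native RNA strand entering the pore from its 3′ end. All 6 cultures are of 1 cell line, so the p-values below measure the spread between cultures of RCC4 alone. The 2 cytokines were given together, so the part of each cannot be told apart.

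Glycolysis converts glucose to pyruvate in a series of cytosolic steps, and lactate dehydrogenase then turns pyruvate into lactate for export. HIF is a transcription factor made of an oxygen-regulated alpha subunit and a stable beta subunit. In normal oxygen its alpha subunits are hydroxylated, bound by the von Hippel-Lindau protein (VHL) and degraded. RCC4 lacks functional VHL and therefore holds HIF alpha subunits in normal oxygen, so HIF targets can be active in untreated cells of this line. HIF activity itself was not tested here. HIF binds a short core sequence in the promoters or enhancers of many glycolytic genes.

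Library totals ran from 3626000 to 4406296 counts. The cytokine response genes IRF1 and GBP1 had log2 fold changes of 5.29 and 8.39 in treated over untreated cells (edgeR adjusted p 3.34e-06 for each). All 10 renal epithelial carcinoma markers examined were detected. None of the 5 endothelial markers had a count, and 6 of 10 leukocyte markers were at 0 in all 6 libraries, among them PTPRC and CD3E. Summed leukocyte markers ranged from 2.96 to 6.02 CPM (the usual per-million scale of counts, with TMM-scaled library sizes) in untreated and from 1.35 to 3.14 CPM in treated libraries. Among them CSF1R had means of 4.72 CPM in untreated and 1.24 CPM in treated libraries. It was called lower (log2 fold change -1.90, edgeR adjusted p 0.0314). Of 7 fibroblast and mural markers 4 were at 0, DCN and LUM among them, and the sum ranged from 54.8 to 74.7 CPM in untreated and from 27.7 to 49.4 CPM in treated libraries. COL1A1 had means of 55.8 CPM in untreated and 36.2 CPM in treated libraries and was not called (edgeR adjusted p 0.23). PDGFRB had means of 10.3 and 2.72 CPM and was called lower (log2 fold change -1.91, edgeR adjusted p 0.0049). Renal markers summed to between 7237 and 8913 CPM in untreated and between 10800 and 15555 CPM in treated libraries, and the part of any of these markers in the results was not tested.

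The HIF core is shown first in promoter sequences of 4 members, because it is the element that HIF binds. Sequences are those of RefSeq on GRCh38.p14, written 5′ to 3′ on the gene's strand, with matches to ACGTG or GCGTG on either strand in capitals. The first 3 are the 250 bases before an annotated gene start and hold no annotated exon of the counted gene models. They belong to PGK1 (chrX:78103998-78104247), HK2 (chr2:74834920-74835169) and SLC16A3 (chr17:82228792-82229041), all on the plus strand. The last is a stretch of 30 bases of CA9 (chr9:35673898-35673927, plus strand) whose core begins 18 bases before the RefSeq gene start.
PGK1: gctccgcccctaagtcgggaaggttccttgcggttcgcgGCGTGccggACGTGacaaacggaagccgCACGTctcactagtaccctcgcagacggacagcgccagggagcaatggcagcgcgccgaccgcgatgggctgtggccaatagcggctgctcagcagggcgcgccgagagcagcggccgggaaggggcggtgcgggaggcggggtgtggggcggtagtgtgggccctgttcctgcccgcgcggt
HK2: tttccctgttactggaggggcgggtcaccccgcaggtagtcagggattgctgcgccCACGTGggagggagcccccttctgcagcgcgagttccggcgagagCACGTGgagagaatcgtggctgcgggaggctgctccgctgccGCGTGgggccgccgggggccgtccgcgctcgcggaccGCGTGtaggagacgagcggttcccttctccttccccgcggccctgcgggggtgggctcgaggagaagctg
SLC16A3: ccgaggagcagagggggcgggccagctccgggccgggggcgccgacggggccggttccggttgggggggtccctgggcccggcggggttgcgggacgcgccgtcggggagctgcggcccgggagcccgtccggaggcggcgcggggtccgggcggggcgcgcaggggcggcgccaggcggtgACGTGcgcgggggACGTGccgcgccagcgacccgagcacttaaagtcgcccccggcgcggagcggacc
CA9: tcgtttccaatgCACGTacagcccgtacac

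The PGK1 window held 3 cores, the HK2 window 4 and the SLC16A3 window 2. RefSeq windows were matched for 34 of the 38 members, with 64 windows in all because some genes have several annotated starts. Of these windows, 39 (60.9%) held ACGTG or GCGTG, against 43.2% of 35116 windows over all genes. Windows of 1 gene can overlap and hold the same site, as the 2 windows of KDM3A did, so windows are not independent. The share for ACGTG alone was 39.1% against 18.5%, and for GCGTG alone 37.5% against 32.2%. The list was drawn up to include HIF targets, so these shares are a description and not a test. Overlapping matches on opposite strands, as in CACGTG, were counted as 1 site. At least 1 window held a core in 29 members, while LDHB, P4HA2, PGAM1, PKM and SLC2A1 had none in these 250 bases. Members with several windows can reach this count more easily. HK1 and PFKM held a core in 1 of 7 windows each, and SLC16A3 in 3 of 5. The share per gene over all genes was not taken. A pair of GAAA runs on 1 strand with any 2 bases between them, a core of interferon response elements, was in 2 of the 64 windows (3.13%) against 3.02% of all windows. Both are windows of PFKM that overlap each other (chr12:48105103-48105352 and chr12:48105231-48105480), so they are not independent. Both strands were searched. Such matches describe letters in a window and are not binding sites.

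Most of the glycolysis and HIF target list did not pass the test after 24 h of cytokines. SLC16A3, which encodes the lactate exporter MCT4, and HK1, which encodes the housekeeping hexokinase, rose about 1.79-fold and 2.06-fold. No member was called lower. Of the 38 members, 34 passed the filter on low counts and 2 of these were called (edgeR quasi-likelihood, adjusted p threshold 0.05), where 8.14% of the 10067 genes tested were. Both calls were higher, with 5.58% of all genes called higher and 2.55% called lower. At an unadjusted p under 0.05 there were 8 of 34 members, 4 in each direction, where 19.8% of all genes tested had such a p. DESeq2 and limma voom also called 0 members lower. Scaling to library totals alone called 1 lower (SLC2A1), and a fit with the replicate number as a block called 2 (SLC2A1 and PFKM). The members' median log2 fold change was -0.06, and that of all genes tested was -0.03. Levels of treated and untreated libraries did not overlap in 8 members, against 25.9% of all genes tested. Of these 8, 4 were higher and 4 lower, patterns shown by 13.9% and 12% of all genes. These shares are near the background. In bulk RNA, fewer cells of a type and less RNA per cell cannot be told apart.

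**Figure D1:**
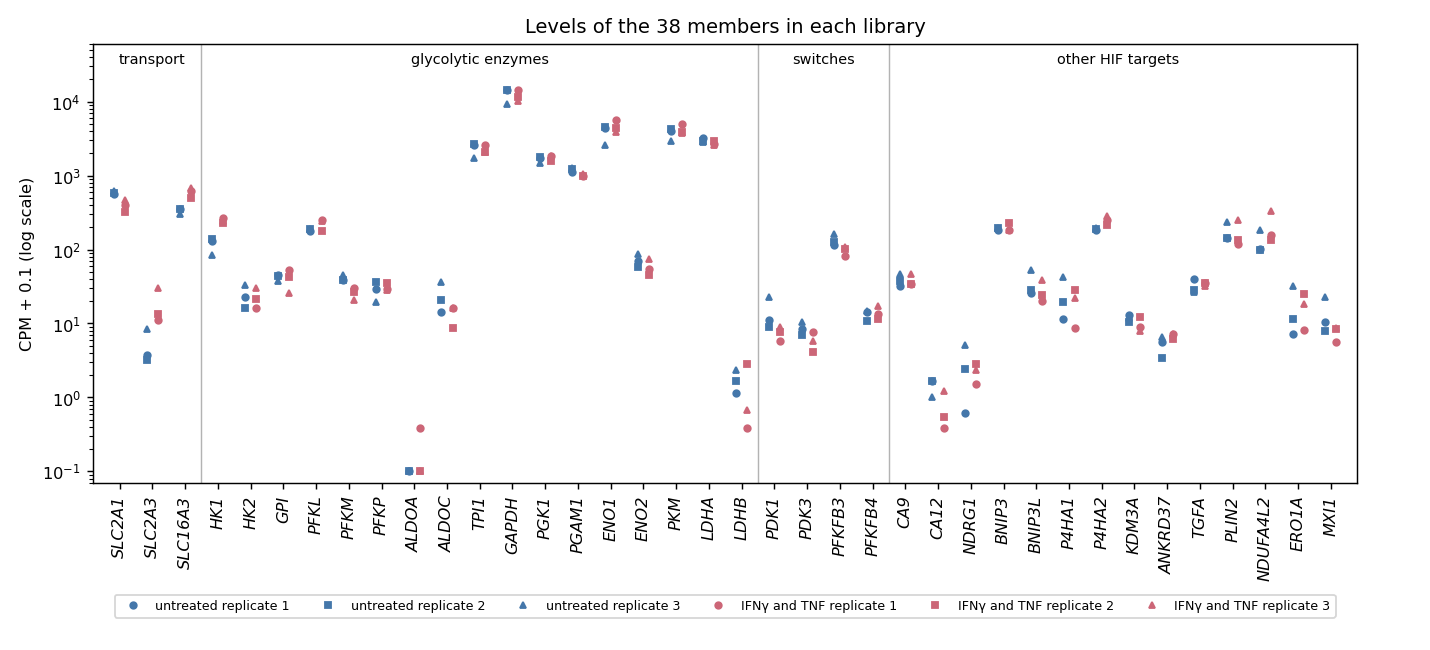
Level of each of the 38 members in each library, as CPM plus 0.1 on a log axis, with genes on the horizontal axis by role, untreated libraries in blue and treated libraries in red, and the replicate number shown by the symbol. SLC16A3 and HK1 sit higher in all 3 treated libraries, SLC2A1 sits lower, and ALDOA has 1 count in 1 library.

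Of the 3 transporters, SLC16A3 was called higher and the glucose importers did not pass. SLC16A3 (ENSG00000141526; GRCh38 chromosome 17, 82217934 to 82261129, plus strand) exports lactate with a proton. Its levels were 351.4, 351.6 and 305.6 CPM in untreated replicates 1, 2 and 3. Treated replicates 1, 2 and 3 had 625, 497.2 and 683.4 CPM. The groups did not overlap, and the treated libraries were higher. The means were 336.2 ± 26.5 and 601.8 ± 95.2 CPM (SD, n = 3 each; log2 fold change 0.84, SE 0.18, edgeR adjusted p 0.0198). The call was lost in 4 of the fits without 1 library, with edgeR adjusted p of 0.057 without untreated replicate 1, 0.0842 without untreated replicate 2, 0.069 without treated replicate 1 and 0.0958 without treated replicate 3. Its log2 fold change stayed between 0.75 and 0.90 in those 4 fits.

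SLC2A1 encodes GLUT1, the glucose importer of most cell types, and SLC2A3 encodes GLUT3, an importer with a higher affinity for glucose. SLC2A1 (chromosome 1, 42925353 to 42958893, minus strand) had 566.6, 581.5 and 611 CPM in untreated replicates 1, 2 and 3 and 404.9, 317.3 and 472 CPM in treated replicates 1, 2 and 3. The groups did not overlap, with the treated libraries lower. Its log2 fold change of -0.56 (SE 0.18) did not pass the threshold (edgeR adjusted p 0.115), with a 95% interval from -0.97 to -0.14. Scaled to library totals alone, which moves the median of all genes to -0.13, it was -0.67 and was called lower (edgeR adjusted p 0.0485).

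SLC2A3 (chromosome 12, 7919230 to 7936187, minus strand) had few reads in untreated cells, with 14, 12 and 36 counts in untreated replicates 1, 2 and 3. Treated replicates 1, 2 and 3 had 38, 60 and 104 counts. In CPM the lowest treated library (11) lay above the highest untreated one (8.2). Its log2 fold change was 1.83 (SE 0.49), or 3.56-fold, with an edgeR adjusted p of 0.0553. It was called higher in 5 of 13 alternatives, among them edgeR with the size factors of DESeq2 (edgeR adjusted p 0.0487). Untreated replicate 3 was the highest untreated library. Without it the log2 fold change was 2.40 and passed (edgeR adjusted p 0.00659), as it did with DESeq2 (log2 fold change 1.87, adjusted p 0.00484). In the other 5 fits without 1 library it did not pass, with the smallest value, 1.29, without treated replicate 3 (edgeR adjusted p 0.231). SLC2A14, a close copy of SLC2A3 named here after its counts were seen, had 0 counts in all 6 libraries, and reads that align equally well to both could be left out of either count.

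**Figure D2:**
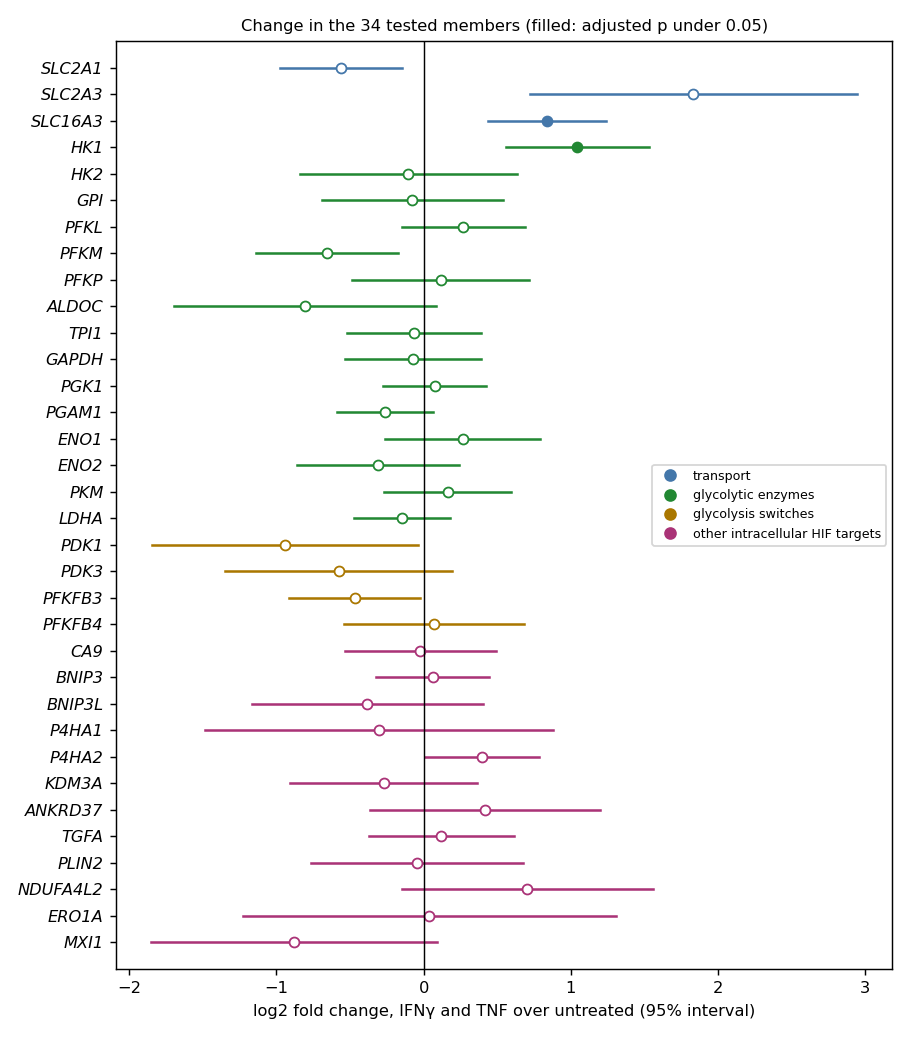
Log2 fold change of treated over untreated cells for the 34 tested members, with 95% intervals from edgeR's quasi-likelihood fit and colours for roles. Filled circles mark SLC16A3 and HK1, the members past the threshold, and most other intervals span 0.

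Hexokinases trap glucose inside the cell as glucose 6-phosphate. HK1 (ENSG00000156515; chromosome 10, 69269984 to 69401884, plus strand) had 128.6, 139.9 and 84.9 CPM in untreated replicates 1, 2 and 3. The treated libraries had 262.8, 225.2 and 239.6 CPM in the same order of replicate numbers. The treated values lay close together and all above the untreated ones. The means were 117.8 ± 29 and 242.5 ± 19 CPM (SD, n = 3 each; log2 fold change 1.04, SE 0.21, edgeR adjusted p 0.0174). HK1 did not pass without treated replicate 1 (log2 fold change 0.99, edgeR adjusted p 0.0652) or without treated replicate 3 (1.06, 0.0683), and passed in the other 11 alternatives. HK2 encodes the hexokinase that is the usual HIF target of this family. It had 22.8, 16.3 and 32.8 CPM in untreated and 15.9, 21.2 and 29.9 CPM in treated replicates 1, 2 and 3, and the groups overlapped. Its log2 fold change was -0.10 with a 95% interval from -0.84 to 0.63.

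The middle of the pathway held 1 member whose groups did not overlap. PFKM, the muscle-type subunit of phosphofructokinase, had 38.7, 38.8 and 44.6 CPM in untreated and 30.3, 26.4 and 20.8 CPM in treated replicates 1, 2 and 3. The treated libraries were all lower, with a log2 fold change of -0.66 (SE 0.21) that did not pass (edgeR adjusted p 0.11). The liver-type and platelet-type subunits, PFKL and PFKP, had log2 fold changes of 0.27 and 0.12, with intervals from -0.15 to 0.68 and from -0.49 to 0.72. GPI, which interconverts glucose and fructose 6-phosphates, had a log2 fold change of -0.08 (95% interval -0.69 to 0.54). ALDOC, the brain-type aldolase, had 14.1, 20.4 and 36.7 CPM in untreated and 16.2, 8.58 and 16.3 CPM in treated replicates 1, 2 and 3. Untreated replicate 3 was the highest, the groups overlapped, and the log2 fold change was -0.81 (edgeR adjusted p 0.306).

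The 7 enzymes with the most counts act from the interconversion of triose phosphates onward. GAPDH, which makes the first NADH of the pathway, had 14193, 14306 and 9324 CPM in untreated and 14371, 11349 and 10240 CPM in treated replicates 1, 2 and 3. The log2 fold changes were -0.06 for TPI1 (triose phosphate isomerase), -0.07 for GAPDH, 0.08 for PGK1 (the first ATP-yielding step) and -0.26 for PGAM1 (phosphoglycerate mutase). For ENO1 (enolase), PKM (pyruvate kinase) and LDHA (lactate dehydrogenase A) they were 0.26, 0.16 and -0.14. None passed, with edgeR adjusted p from 0.376 for PGAM1 to 0.924 for TPI1. The widest of these 7 intervals was that of ENO1, from -0.26 to 0.79, and that of LDHA ran from -0.47 to 0.18. PGAM1 was lower in every treated library, at 970.9, 980.2 and 1054 CPM, than in every untreated one, at 1132, 1222 and 1252 CPM.

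ENO2, the neuronal enolase, had a log2 fold change of -0.31 (95% interval -0.86 to 0.24). All 17 glycolytic enzymes together held between 2.52% and 3.24% of counts in untreated libraries and between 2.52% and 3.06% in treated ones, and both lowest values were in replicate 3. ALDOA and LDHB, with 1 and 35 counts over the 6 libraries, added almost nothing to this sum, and their exon overlap is given below. Several of these genes, GAPDH among them, have processed copies in the genome, so reads that align equally well to a copy could be left uncounted.

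Of the regulators of flux, PFKFB3 and PFKFB4 make fructose 2,6-bisphosphate, the activator of phosphofructokinase. PFKFB3 had 116.5, 127.2 and 160.8 CPM in untreated and 82.6, 100.9 and 108.7 CPM in treated replicates 1, 2 and 3. All treated libraries were lower, by a log2 fold change of -0.47 (SE 0.20) that did not pass (edgeR adjusted p 0.223). PFKFB4 had a log2 fold change of 0.07 (95% interval -0.54 to 0.68). PDK1 and PDK3 encode kinases that switch off pyruvate dehydrogenase and so keep pyruvate from the mitochondrial cycle. PDK1 had 11, 8.79 and 23 CPM in untreated and 5.78, 7.67 and 8.84 CPM in treated replicates 1, 2 and 3. Its groups overlapped by treated replicate 3 alone, which lay just above untreated replicate 2, and the log2 fold change of -0.94 (SE 0.40) had an edgeR adjusted p of 0.23. Untreated replicate 3 was high, and without any 1 library the log2 fold change ran from -1.19 to -0.42. PDK3 had a log2 fold change of -0.58 (edgeR adjusted p 0.424).

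The other HIF targets had 0 calls in either direction among 12 tested, and 0 calls in DESeq2 and limma voom. With an unadjusted p under 0.05 there was 1, P4HA2, where 19.8% of all genes tested had such a p. CA9, the surface carbonic anhydrase used as a marker of clear cell renal carcinoma, had 31.9, 37.2 and 46.9 CPM in untreated and 34.4, 33.9 and 46.2 CPM in treated replicates 1, 2 and 3. The groups overlapped throughout, with a log2 fold change of -0.02 and a 95% interval from -0.54 to 0.49. BNIP3 and BNIP3L encode outer mitochondrial membrane proteins that mark mitochondria for autophagy. BNIP3 had 181.7, 192.9 and 198.1 CPM in untreated and 181.9, 230.4 and 185.1 CPM in treated replicates 1, 2 and 3 (log2 fold change 0.06, 95% interval -0.32 to 0.44). BNIP3L had a log2 fold change of -0.38 (95% interval -1.17 to 0.40).

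P4HA1 and P4HA2 encode the catalytic subunits of collagen prolyl 4-hydroxylase in the endoplasmic reticulum. P4HA2 had 184.6, 190.8 and 193.3 CPM in untreated and 250.4, 212.4 and 285.8 CPM in treated replicates 1, 2 and 3. Every treated library was above every untreated one, with a log2 fold change of 0.40 (SE 0.17) that did not pass (edgeR adjusted p 0.241). P4HA1 had 11.5, 19.1 and 42.8 CPM in untreated and 8.66, 28.4 and 22.2 CPM in treated replicates 1, 2 and 3. The spread within each group exceeded the difference between them, and the 95% interval ran from -1.49 to 0.88. ERO1A, an oxidase that forms disulfide bonds in the same compartment, had 7.07, 11.4 and 31.7 CPM in untreated and 8.09, 25.1 and 18.3 CPM in treated replicates 1, 2 and 3. Its log2 fold change was 0.04, with a 95% interval from -1.23 to 1.30.

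NDUFA4L2, a mitochondrial protein that lowers respiratory chain activity and is high in clear cell renal carcinoma, had 100, 99.8 and 185.8 CPM in untreated replicates 1, 2 and 3. Treated replicates 1, 2 and 3 had 158.6, 135.4 and 334.8 CPM. Replicate 3 was the highest of each group, and the log2 fold change of 0.70 (SE 0.38) had an edgeR adjusted p of 0.363. It passed in the fit with no filter on low counts (edgeR adjusted p 0.0248). Without treated replicate 3 the log2 fold change was 0.20 (edgeR adjusted p 0.902). PLIN2, which coats lipid droplets, had 144.8, 141.2 and 234.3 CPM in untreated and 118.4, 134.1 and 252 CPM in treated replicates 1, 2 and 3, again with replicate 3 highest in each group. Its log2 fold change was -0.05 (95% interval -0.77 to 0.68).

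MXI1, a MYC antagonist, had 10.5, 7.76 and 23 CPM in untreated and 5.49, 8.35 and 8.56 CPM in treated replicates 1, 2 and 3, a log2 fold change of -0.88 (edgeR adjusted p 0.306). Without untreated replicate 3 it was -0.29. TGFA, a ligand of the epidermal growth factor receptor, had a log2 fold change of 0.12 (95% interval -0.37 to 0.61). KDM3A, a histone H3 demethylase, and ANKRD37, an ankyrin repeat protein, had log2 fold changes of -0.27 and 0.41 (edgeR adjusted p 0.706 and 0.612).

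The remaining 4 members, ALDOA, LDHB, CA12 and NDRG1, had under 100 counts each over the 6 libraries and did not pass the filter. ALDOA, the main aldolase of most tissues, had 1 count in all, in treated replicate 1. LDHB, the heart-type lactate dehydrogenase, had 4, 6 and 10 counts in untreated replicates 1, 2 and 3 and 1, 12 and 2 in the treated ones. NDRG1, a stress-responsive gene used as a hypoxia marker, had 2, 9 and 22 counts in untreated replicates 1, 2 and 3 and 5, 12 and 8 in the treated ones. These 3 genes share exons on their own strand with another annotated gene, and the counting program was not set to count reads that meet exons of several genes. The part of this overlap in their low counts was not tested.

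For ALDOA (chromosome 16, 30064164 to 30070457, plus strand), exons of the protein-coding gene ENSG00000285043 covered 75.7% of the 1000 exonic bases nearest the 3′ end, and that gene had 3 counts over the 6 libraries. For NDRG1 (chromosome 8, 133237175 to 133302022, minus strand) the share was 75.3%, from ENSG00000289316, and all of the 500 bases nearest the 3′ end were covered (100%). For LDHB (chromosome 12, 21635342 to 21757857, minus strand) it was 49%, from ENSG00000285854. The partners of NDRG1 and LDHB, with 0 counts each, were chosen for naming after their values were seen. CA12, another carbonic anhydrase (chromosome 15, 63321378 to 63381846, minus strand), had 0% overlap, with 6, 6 and 4 counts in untreated replicates 1, 2 and 3 and 1, 2 and 4 in the treated ones. A count of 3 corresponds to between 0.681 and 0.827 CPM before scaling in these libraries, a limit that covers counting error alone. The other 34 members had 0% overlap in this window.

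**Figure D3:**
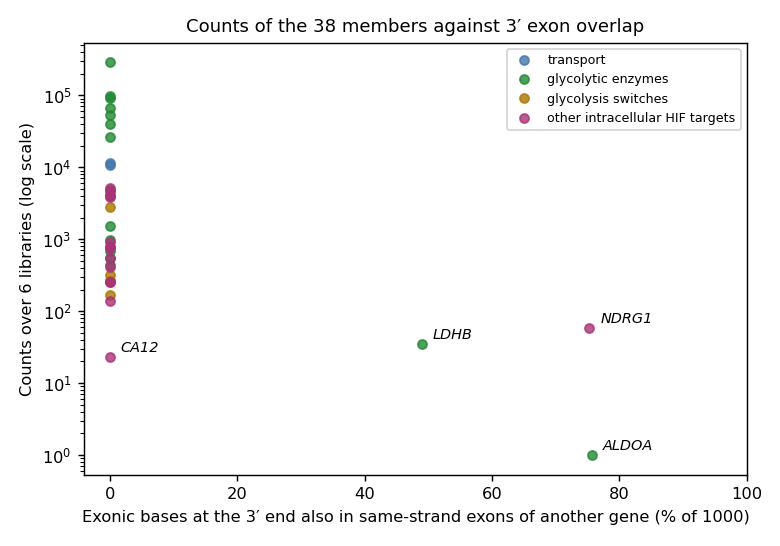
Counts summed over the 6 libraries (log axis) against the share of the 1000 exonic bases nearest the 3′ end that lies in same-strand exons of another gene, for the 38 members coloured by role. ALDOA, NDRG1 and LDHB have shares of 75.7%, 75.3% and 49% and under 100 counts, and CA12 is the member under 100 counts with a share of 0%.

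Over all genes of protein-coding type in GENCODE 29, 1124 had at least 45% of these 3′ bases covered, and 94.7% of them had under 100 counts. Among the 18096 with no such base covered the share was 54.9%. In the fit with no filter on low counts none of the 4 members passed, with edgeR adjusted p of 0.691 for ALDOA, 0.856 for LDHB, 0.875 for NDRG1 and 0.668 for CA12.

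Ratios between members that do the same step were taken within each library, where no scaling between libraries is needed. Of 12 pairs listed, 9 had at least 10 counts for both genes in every library. A 2-sided exact permutation test of 3 against 3 libraries cannot go below p = 0.1, and adjusted over the 9 pairs the smallest value was 0.45. The groups did not overlap in 2 pairs. Read counts of SLC2A3 per read of SLC2A1 were 0.00647, 0.00534 and 0.0134 in untreated and 0.0271, 0.0427 and 0.0628 in treated replicates 1, 2 and 3, a difference of 2.43 on the log2 scale (exact permutation p = 0.1). SLC2A3 remained the minor transcript in every library, and per kilobase of exonic length the ratio went from 0.00843 to 0.0455.

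PFKM per read of PFKL was 0.215, 0.204 and 0.237 in untreated and 0.121, 0.15 and 0.0852 in treated replicates 1, 2 and 3 (difference -0.92 on the log2 scale, exact permutation p = 0.1). Per kilobase of exonic length this ratio was 0.269 in untreated and 0.142 in treated cells. HK2 per read of HK1 was 0.177, 0.116 and 0.386 in untreated and 0.0604, 0.0942 and 0.125 in treated replicates 1, 2 and 3. That pair overlapped by untreated replicate 2 and treated replicate 3, with a difference of -1.16 on the log2 scale (exact permutation p = 0.2). The other 6 pairs overlapped, with differences from -0.60 for ENO2 over ENO1 to 0.65 for P4HA2 over P4HA1.

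**Figure D4:**
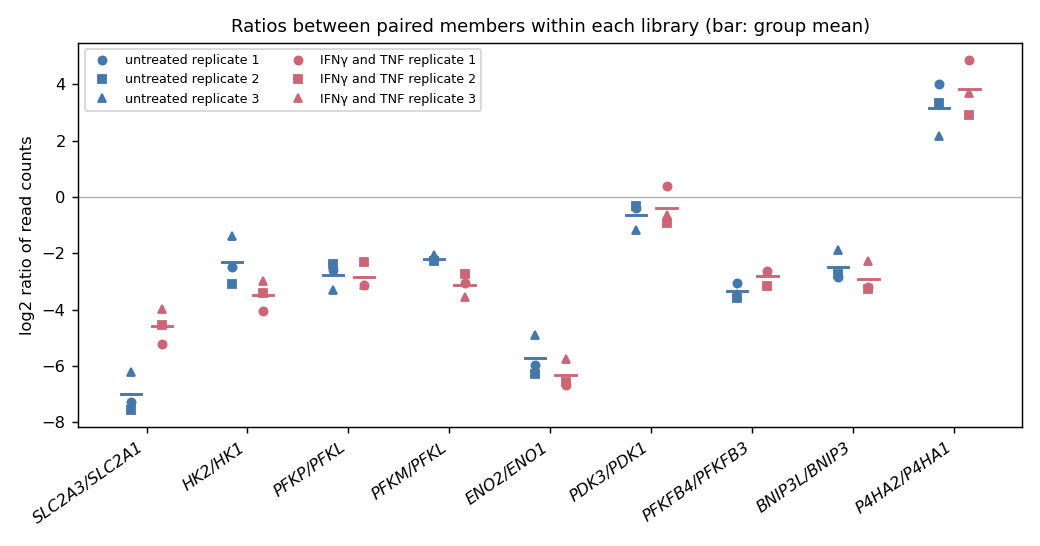
Log2 ratio of read counts of 9 pairs of members in each library, with untreated libraries in blue, treated libraries in red, symbols for replicate numbers and short bars for group means. SLC2A3 over SLC2A1 is higher in all 3 treated libraries and PFKM over PFKL is lower in all 3, while the other pairs overlap.

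The members' median SD within groups was 0.294 on the log2 CPM scale, against 0.329 over all genes tested. Untreated replicate 3 was the highest untreated library in 21 of the 34 tested members, where 45.4% of all genes tested had it highest. It was at least 2-fold above the mean of untreated replicates 1 and 2 in 6 members, where 13.9% of all genes were. ERO1A, P4HA1, MXI1, SLC2A3, PDK1 and ALDOC were the 6, with log2 differences of 1.78, 1.48, 1.34, 1.28, 1.22 and 1.09. In the same library PFKP, ENO1, HK1, GAPDH and TPI1 were lower than that mean, by log2 values of -0.79, -0.76, -0.66, -0.61 and -0.59. The exonic length of genes, weighted by counts, was 4484 bases in untreated replicate 3, against 4238 and 4275 in untreated replicates 1 and 2, and from 4204 to 4376 in treated libraries. Its part in the spread was not tested.

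**Figure D5:**
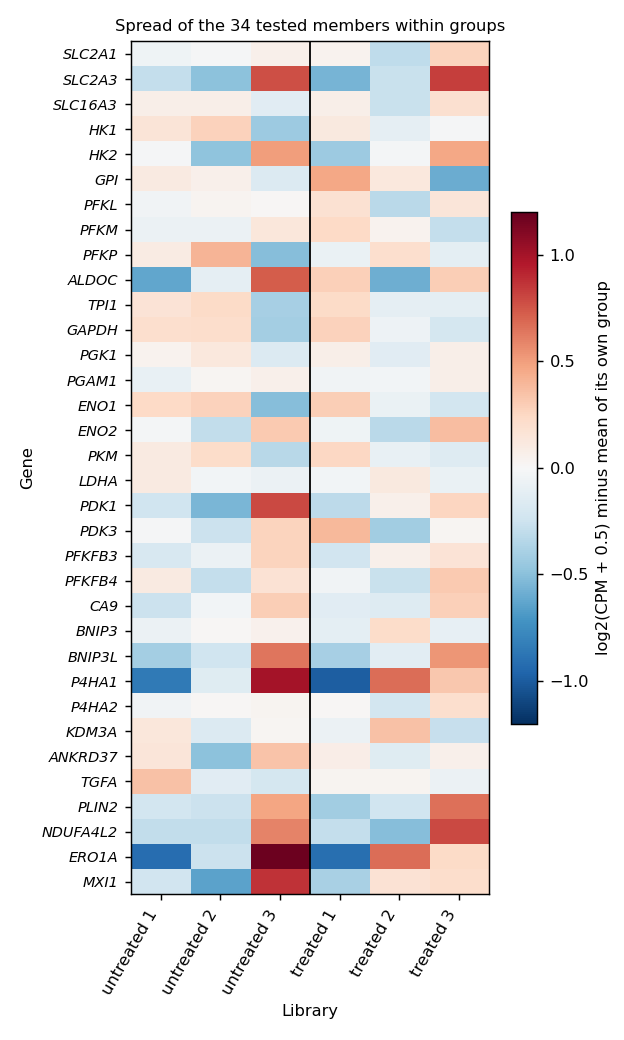
Deviation of each tested member from the mean of its own group in each library, as log2(CPM + 0.5), with genes in rows, libraries in columns and a scale from blue (below the mean) to red (above). Untreated replicate 3 is red for ERO1A, P4HA1, MXI1 and PDK1 and blue for ENO1, GAPDH and HK1.

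Genes of the same and adjoining pathways were read from 5 further lists. Of 41 other glycolysis and pyruvate genes, 19 were tested, with 2 called higher and 0 lower (limma voom and DESeq2 likewise called 0 lower). Over all genes tested, 5.58% were called higher and 2.55% lower. At an unadjusted p under 0.05 were 5 of the 19, where 19.8% of all genes tested had such a p. The genes called higher were BPGM, which makes 2,3-bisphosphoglycerate, and SLC2A6, a glucose transporter of internal membranes. BPGM had 14.9, 9.57 and 19.1 CPM in untreated and 32.6, 47.6 and 56.5 CPM in treated replicates 1, 2 and 3 (log2 fold change 1.64, SE 0.31, edgeR adjusted p 0.011). All treated libraries were higher, and only without treated replicate 3 did it miss the threshold (edgeR adjusted p 0.0564). SLC2A6 had 23.8, 26.4 and 13.4 CPM in untreated and 45.6, 38.1 and 51.1 CPM in treated replicates 1, 2 and 3 (log2 fold change 1.08, SE 0.28, edgeR adjusted p 0.0452). Its call was lost without any 1 library other than untreated replicate 3, with edgeR adjusted p from 0.0598 to 0.177 in those 5 fits.

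In the tricarboxylic acid cycle, 1 of 19 tested genes was called higher and 0 lower, with 3 at an unadjusted p under 0.05 (19.8% of all genes). It was ACO1, the cytosolic aconitase that doubles as an iron regulatory protein. It had 40.8, 38 and 61.7 CPM in untreated and 91.5, 87.6 and 105.8 CPM in treated replicates 1, 2 and 3 (log2 fold change 1.02, SE 0.23, edgeR adjusted p 0.025). ACO1 did not pass without untreated replicate 1 (edgeR adjusted p 0.0732), untreated replicate 2 (0.124), treated replicate 1 (0.0628) or treated replicate 3 (0.108), nor with library totals alone (0.0686).

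No gene of gluconeogenesis and glycogen (12 tested, 0 at an unadjusted p under 0.05) or of the pentose phosphate pathway (8 tested, 1) passed in edgeR, DESeq2 or limma voom, where 19.8% of all genes had such a p. The smallest edgeR adjusted p in the first list were those of PC, pyruvate carboxylase (log2 fold change -0.75, 0.308), and GBE1, the glycogen branching enzyme (-0.37, 0.475). In the second they were those of PGD, phosphogluconate dehydrogenase (0.44, 0.212), and TKT, transketolase (-0.21, 0.636).

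Of 29 further HIF targets and HIF subunits, 26 were tested, with 1 called higher and 1 lower (5.58% and 2.55% of all genes tested). At an unadjusted p under 0.05 were 7 of the 26, where 19.8% of all genes tested had such a p. KLF10, a zinc finger repressor, had 21.2, 24.8 and 31.4 CPM in untreated and 58.6, 79 and 84.4 CPM in treated replicates 1, 2 and 3 (log2 fold change 1.52, SE 0.23, edgeR adjusted p 0.00384). It passed in all 13 alternatives. ZNF395, a zinc finger protein, had 34.3, 27.9 and 51.5 CPM in untreated and 17, 14.4 and 16.3 CPM in treated replicates 1, 2 and 3. All treated libraries were lower, at a log2 fold change of -1.25 with SE 0.27 and edgeR adjusted p 0.0208, and the call was lost without treated replicate 1 (0.0591), 2 (0.0973) or 3 (0.0871). These lists were described by counts, and their medians ran from -0.17 for the other glycolysis genes to 0.07 for the pentose phosphate genes.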

How the data were processed

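Direct RNA libraries of 500 ng poly(A) RNA were sequenced for 72 h on separate flow cells, and reads with a quality above 7 were used, per the series text. The authors deposited read counts per gene, 1 file per library. They were made with featureCounts 2.0.1 in long-read, strand-specific mode on Ensembl release 105 exons (GRCh38), per the file headers. The submitters' processing notes name featureCounts 2.0.0, minimap2 2.24 and SAMtools 1.16 without roles. Neither multi-mapping nor multi-gene reads were set to be counted, per the file headers. Alignment names there carry the word dmso, which the labels do not mention. Groups came from the sample titles.

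Symbols came from a name table (61369 of 61541 identifiers) and GENCODE 29 (159). The whole table was fitted with edgeR 4.0.16 in R 4.3.3 (quasi-likelihood F test, TMM, filterByExpr, group as the sole term, Benjamini-Hochberg adjustment over 10067 genes, threshold 0.05), which was tested on simulated data. SE is the absolute log2 fold change over the square root of F, and 95% intervals use the fit's degrees of freedom. CPM use TMM-scaled totals of the tested genes. Alternatives used DESeq2 1.42.0, limma 3.58.1 voom, other scalings, a minimum of 10 counts in all libraries, no filter on low counts (every gene with at least 1 count), the replicate number as a block, and fits without 1 library. Named genes were all members, companion genes past the threshold (or the 2 nearest), IRF1, GBP1, and exon-sharing partners of members under 10 counts. SLC2A14, the partners of LDHB and NDRG1, and the cell type markers named lie outside this rule. Results for 1 promoter motif are not reported here. Members and lists were chosen with earlier results of these data known.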

Additional observations from a re-analysis of the deposited data

How the results depend on the processing

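With 3 libraries a group, leaving out treated replicate 1 or 3 ended both calls on the members. SLC16A3 and HK1 were both called under all 7 alternatives that kept the 6 libraries, and 0 to 3 members were called higher in the fits without 1 library. The count was 4 with no filter on low counts. Members called lower numbered 0 in the 6 fits without 1 library and 1 with library totals alone. Same-numbered replicates deviated together in pairs 1 and 3 (r = 0.651 and 0.374 across genes) but not in pair 2 (-0.0037). Untreated replicate 3 and treated replicate 2, of unlike number, had r = 0.413. The labels name no pairing, and whether same-numbered cultures belong together cannot be told from these values. A fit with the replicate block called 4 members higher (HK1, SLC16A3, SLC2A3 and NDUFA4L2, the last at edgeR adjusted p 0.0129). It called 2 lower (SLC2A1 at edgeR adjusted p 0.019 and PFKM at 0.0446). Over all genes, 562 were higher and 257 lower; 849 and 479 with no filter, 907 and 606 with the replicate block, 485 and 364 with library totals alone, and from 358 to 733 and from 96 to 445 without 1 library.

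Some members changed sign between fits, most of them with a log2 fold change near 0. BNIP3L and P4HA1 lay further out, at -0.38 (SE 0.35) and -0.31 (SE 0.52) in the main fit. With library totals alone log2 values were -0.041 for BNIP3, -0.091 for ERO1A, -0.041 for PFKFB4 and -0.028 for PGK1, and CA9 was 0.011 with no filter on low counts. Without 1 library the ranges were -0.0061 to 0.13 for BNIP3, -0.69 to 0.019 for BNIP3L, -0.18 to 0.13 for CA9, -0.30 to 0.89 for ERO1A, -0.26 to 0.043 for GAPDH, -0.32 to 0.17 for GPI, -0.36 to 0.19 for HK2, -0.62 to 0.37 for P4HA1, -0.10 to 0.26 for PFKFB4, -0.11 to 0.34 for PFKP, -0.0093 to 0.19 for PGK1, -0.45 to 0.23 for PLIN2 and -0.24 to 0.050 for TPI1. The ratio of PFKP to PFKL ranged from -0.36 to 0.10 and that of PDK3 to PDK1 from -0.14 to 0.50. The cause of these changes was not tested.

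Over the nearest 500 and 2000 exonic bases, 3′ overlap was 74% and 48.6% for ALDOA, 46% and 45.6% for LDHB, and 100% and 37.6% for NDRG1.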
